A study of Rattus norvegicus with 4 samples.

Results

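Circadian clock genes and genes of the PAR bZIP family were followed in NRK-52E cells, a long-established rat kidney line of epithelial origin. The set holds 10 genes, taken by symbol from a table of 17768 genes, and all 10 were found. It was chosen by known clock function and by the log2 fold changes of several of its genes between the same 2 groups. They are the PAR bZIP genes Dbp, Tef and Hlf, the period genes Per1, Per2 and Per3, the REV-ERB genes Nr1d1 and Nr1d2, and the cryptochrome genes Cry1 and Cry2. RNA was sequenced from 4 libraries in 2 groups of 2. Those labelled lv_Mettl3 are of a stable line infected with a lentivirus (pLVX-IRES-Puro) that carries a murine Mettl3 cDNA, and those labelled lv_nc are the set they were compared with. The labels do not spell out nc, describe every sample as untreated, and give the same text on 0.5 mg/ml puromycin for selection, 0.25 mg/ml puromycin for maintenance and 10% serum for both groups. They give neither the hour of harvest, nor whether a line was 1 clone, nor whether replicates came from separate cultures, so errors and p-values cover nothing beyond library-to-library spread, which may be technical.

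The clock of mammalian cells is a loop of transcription. CLOCK and BMAL1 (gene symbol Arntl in the table) bind E-boxes and switch on the period, cryptochrome, REV-ERB and Dbp genes; the period and cryptochrome proteins then repress CLOCK and BMAL1, and the REV-ERB proteins repress Arntl through ROR elements. DBP, TEF and HLF, named for a proline and acidic amino acid rich domain next to the basic leucine zipper, carry the rhythm to output genes by binding D-boxes, which the repressor NFIL3 also binds. In the mouse kidney the clock is known for daily changes in tubular transport, and METTL3 is the methyltransferase that places N6-methyladenosine on RNA.

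The libraries held 15068898 to 16622255 reads assigned to genes. Mettl3 itself had normalized read counts of 757 and 699.6 in the lv_Mettl3 libraries, against 719 and 767 in the lv_nc libraries, overlapping between the groups (log2 fold change -0.03, SE 0.11, limma adjusted p = 0.931). The cDNA is murine and the table lists rat genes, so groups are called by their labels only. Of 15 proximal tubule markers, 10 were in the table. Ggt1, a brush border peptidase, was at 2412 to 3757, whereas Lrp2, which encodes the endocytic receptor megalin, was at 0 to 1.95 and 5 of the 10 stayed under 10 in every library. The epithelial keratin gene Krt8 was at 28296 to 33065 and the E-cadherin gene Cdh1 at most at 8.79, while the mesenchymal filament gene Vim was at 56378 to 81126. The 7 measured fibroblast and smooth muscle markers summed to 82348 and 83994 in lv_Mettl3 and to 83056 and 72686 in lv_nc, sums that are mostly Vim. The list split: the collagen genes Col1a1 (1033 and 876 in lv_Mettl3, 3914 and 8706 in lv_nc), Col3a1 (1386 and 1017 in lv_Mettl3, 4115 and 6315 in lv_nc) and Col1a2, and Acta2 of smooth muscle, lay lower in both lv_Mettl3 libraries, while Vim and S100a4 lay higher in both and Pdgfra was at 3.10 or less. The 10 measured proximal tubule markers summed to 3421 and 3930.1 in lv_Mettl3 and to 2549 and 2676 in lv_nc. The distal nephron, leukocyte, endothelial and podocyte markers in the table summed to at most 110.4 per list and library. The part of cell makeup in the results was not tested. In bulk RNA, fewer cells expressing a gene and less RNA per cell cannot be told apart.

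In the lv_Mettl3 libraries the PAR bZIP genes Dbp and Tef stood at about 33.3% and 33.9% of their lv_nc means, Per3 at 45.9%, Nr1d1 at 61.2% and Nr1d2 at 74.1%, whereas Per2, Cry1 and Cry2 overlapped between the groups. The members were chosen with results of this same comparison known, so these differences are a description and carry no test. Levels are normalized read counts, and differences are log2 fold changes of lv_Mettl3 minus lv_nc on log2(value + 1), each with its standard error (SE). Means carry the SD over n = 2 libraries per group.

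Upstream sequences of the genes that the results turn on are shown first, as 250 bases that end just before the RefSeq start site (build GRCr8, written 5′ to 3′ on the strand of the gene). Dbp and Tef are shown because their levels followed each other across the libraries, Nr1d1 for its E-box, and Per2 for its D-box. Capitals mark the E-box CACGTG, the related box CACGTT and the D-box TTATGNAA, on either strand.
Dbp, chr1:105312006-105312255, plus strand: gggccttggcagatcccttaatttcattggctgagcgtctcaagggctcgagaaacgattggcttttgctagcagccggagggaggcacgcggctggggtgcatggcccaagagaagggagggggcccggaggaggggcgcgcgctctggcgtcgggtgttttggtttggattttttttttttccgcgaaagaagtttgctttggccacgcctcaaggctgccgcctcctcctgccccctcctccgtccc
Tef, chr7:115206577-115206826, plus strand: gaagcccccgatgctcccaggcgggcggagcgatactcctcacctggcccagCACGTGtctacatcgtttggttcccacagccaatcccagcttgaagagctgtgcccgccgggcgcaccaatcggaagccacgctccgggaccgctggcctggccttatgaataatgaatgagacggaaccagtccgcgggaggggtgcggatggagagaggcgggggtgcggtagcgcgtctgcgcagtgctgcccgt
Nr1d1, chr10:84229455-84229704, minus strand: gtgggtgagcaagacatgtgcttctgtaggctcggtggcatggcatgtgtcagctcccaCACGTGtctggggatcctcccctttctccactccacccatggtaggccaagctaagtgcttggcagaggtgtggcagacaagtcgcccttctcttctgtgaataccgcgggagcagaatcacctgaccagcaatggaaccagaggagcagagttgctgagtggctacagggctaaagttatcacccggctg
Per2, chr9:99496994-99497243, minus strand: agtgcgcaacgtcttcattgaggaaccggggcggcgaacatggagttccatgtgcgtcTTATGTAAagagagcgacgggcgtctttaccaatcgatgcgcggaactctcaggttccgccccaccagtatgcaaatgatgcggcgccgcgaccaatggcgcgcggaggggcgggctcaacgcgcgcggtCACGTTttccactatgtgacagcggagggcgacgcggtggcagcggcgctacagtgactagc

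The Tef window held an E-box whose first base lies at -198 from the start site, and the Dbp window held none of the searched motifs. The Per2 window held a D-box at -192 and a CACGTT box at -62. RefSeq lists 2 start sites for Nr1d1, and the window shown, that of the downstream start, has an E-box at -191; the window of the other start has a CACGTT box at -174 on the opposite strand. Windows were available for 8 of the 10 genes, 9 windows in all. Over windows of 250 bases upstream and 50 downstream, the E-box was in 2 of the 9, against 6.42% of 33469 rat windows, the CACGTT box in 3, against 4.83%, the D-box in 1, against 3.66%, and the ROR element core TAGGTCA in 0, against 2.63%. A CACGTT box was also in the Cry2 window, at -212 on the opposite strand, and the windows of Per1, Per3 and Nr1d2 held none of the searched motifs. The CACGTG and CACGTT boxes share their first 5 letters but no position here. A match is a run of letters and not a shown binding site, and a motif missing from a window says nothing of the rest of the gene.

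Dbp encodes the D-box binding protein, among the clock outputs with the widest daily swing in liver (ENSRNOG00000021027, chromosome 1, 101687855 to 101692846, plus strand, in the authors' file, whose genome build is not given in the sources used here). It had normalized read counts of 65.7 and 85.8 in the lv_Mettl3 libraries, against 144 and 312 in the lv_nc libraries. Both lv_Mettl3 libraries lay below both lv_nc libraries, and the lv_nc libraries were 2.17-fold apart. The means were 75.8 ± 14.2 in lv_Mettl3 and 228 ± 119 in lv_nc, a log2 fold change of -1.48 (SE 0.42). The reads behind them were 62 and 83 in lv_Mettl3 and 147 and 338 in lv_nc. The exact 95% Poisson intervals of the lv_nc values, which cover counting error only, were 121 to 169 and 279.6 to 347, so the gap between the lv_nc libraries exceeded counting error.

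Tef encodes thyrotroph embryonic factor, another activator of D-box genes (ENSRNOG00000019383, chromosome 7, 123043503 to 123058604, plus strand). It had 305 and 375 in the lv_Mettl3 libraries, against 659 and 1347 in the lv_nc libraries. The order of the libraries was that of Dbp, with lv_nc replicate 2 far above the others. The means were 340.2 ± 49.3 in lv_Mettl3 and 1003 ± 486 in lv_nc, a log2 fold change of -1.47 (SE 0.35). Per kilobase of deposited gene length, the level of Tef over that of Dbp was 1.90 and 1.79 in lv_Mettl3 and 1.88 and 1.76 in lv_nc, while the highest library was 4.75 times the lowest for Dbp and 4.41 times for Tef. The third gene of the family, Hlf (chromosome 10, 77840568 to 77918191), had 0 reads in both lv_Mettl3 libraries and in lv_nc replicate 1 and 2 reads in lv_nc replicate 2. A count of 0 allows up to 3 reads, so at this depth Hlf was at or under the floor in every library and no fold is given.

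**Figure D1:**
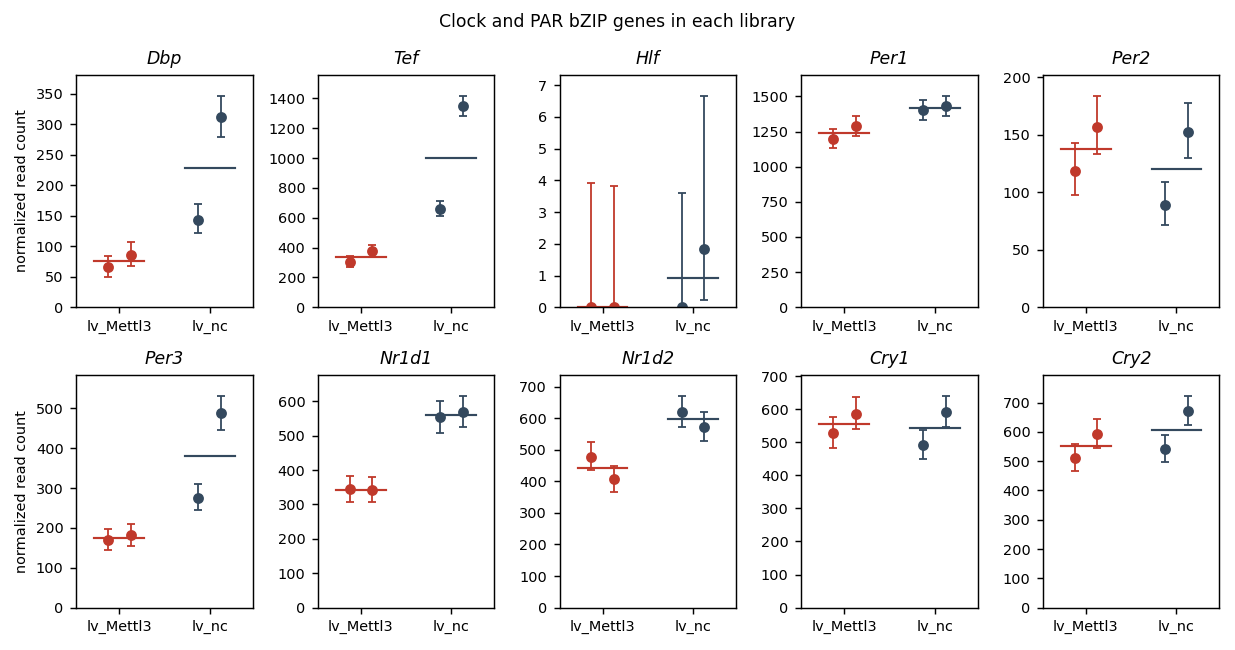
Normalized read counts (y axis, from 0) of the 10 genes in each library, lv_Mettl3 left in red and lv_nc right in dark blue. Points are libraries, bars exact 95% Poisson intervals of the reads, and lines group means. Dbp, Tef and Per3 are lower in both lv_Mettl3 libraries and widely spread in lv_nc (144 and 312 for Dbp). Nr1d1 is lower too, with a spread within groups that is smaller than counting error (553 and 569 in lv_nc).

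The period genes, which encode the repressors that form the negative limb of the loop with the cryptochromes, did not move alike. Per3 (ENSRNOG00000018413, chromosome 5, 168086998 to 168123395, minus strand) had 169.6 and 181 in the lv_Mettl3 libraries, against 276 and 487 in the lv_nc libraries. The lv_nc libraries were 1.77-fold apart, and both lv_Mettl3 libraries lay lower. The means were 175 ± 7.93 in lv_Mettl3 and 381 ± 149.8 in lv_nc, a log2 fold change of -1.06 (SE 0.30).

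Per1 (chromosome 10, 55687050 to 55695994), which also answers quickly to glucocorticoids and cAMP in many cells, had 1199 and 1287 in lv_Mettl3, against 1402 and 1432 in lv_nc. The groups did not overlap, but the means of 1243 ± 61.8 in lv_Mettl3 and 1417 ± 21.1 in lv_nc differed by a log2 fold change of only -0.19 (SE 0.09). Per2 (chromosome 9, 98555169 to 98597359) had 119 and 157 in lv_Mettl3, against 88.9 and 152 in lv_nc. The lv_nc libraries were 1.71-fold apart, close to the gap of Per3, but the groups overlapped, and the log2 fold change of 0.23 (SE 0.33) was smaller than its SE. Per kilobase, the level of Per1 over that of Per3 was 11.3 and 11.4 in lv_Mettl3 and 8.13 and 4.69 in lv_nc.

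Nr1d1 and Nr1d2 encode REV-ERB alpha and beta, nuclear receptors that bind heme and repress Arntl. Nr1d1 (ENSRNOG00000009329, chromosome 10, 86683875 to 86690815, minus strand) had 345 and 342 in the lv_Mettl3 libraries, against 553 and 569 in the lv_nc libraries. The 2 libraries of a group nearly coincided. The means were 343 ± 1.78 in lv_Mettl3 and 561 ± 11.1 in lv_nc, a log2 fold change of -0.71 (SE 0.12). Both SDs are smaller than counting error, so they are no yardstick for the gap between the groups. The exact Poisson intervals were 308 to 384 and 306 to 381 in lv_Mettl3, and 508 to 600 and 525 to 615 in lv_nc. The gap between the groups thus exceeded counting error, the only error that these intervals cover. Unlike Dbp, Tef and Per3, Nr1d1 was at a similar level in both lv_nc libraries (1.03-fold apart). Nr1d2 (chromosome 15, 8730871 to 8757165) had 478 and 406 in lv_Mettl3, against 620.4 and 572 in lv_nc, a log2 fold change of -0.43 (SE 0.14), again without overlap.

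The value of Nr1d1 is uncertain in its source. In the authors' coordinates its 3′ end shares 1059 bases with Thra, the thyroid hormone receptor alpha gene on the opposite strand, and the strand setting of the counting is not given in the sources used here, so reads of the shared stretch cannot be told apart. Thra had 979.7 and 1023 in lv_Mettl3, against 1422 and 2011 in lv_nc, lower in both lv_Mettl3 libraries as well. Per kilobase, the level of Thra over that of Nr1d1 was 2.37 and 2.49 in lv_Mettl3 and 2.14 and 2.94 in lv_nc. No other member overlapped a gene of the table.

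Cry1 and Cry2 encode the cryptochromes, flavoprotein relatives that repress CLOCK and BMAL1 directly. Cry1 (chromosome 7, 24534615 to 24634097) had 527 and 587 in lv_Mettl3, against 492 and 593 in lv_nc, with means of 557 ± 42.5 in lv_Mettl3 and 543 ± 70.9 in lv_nc. Cry2 (chromosome 3, 81314149 to 81344110) had 512 and 594 in lv_Mettl3, against 542 and 672 in lv_nc. Both overlapped between the groups, with log2 fold changes of 0.04 (SE 0.15) for Cry1 and -0.13 (SE 0.16) for Cry2. The level of Cry1 per kilobase was 1.398 and 1.34 times that of Cry2 in lv_Mettl3 and 1.23 and 1.198 times in lv_nc.

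Among the members, 9 passed the filter on low values, and of these 6 were lower in both lv_Mettl3 libraries than in both lv_nc libraries, 0 were higher and 3 overlapped. Across the 16391 genes that passed, 21.5% were lower and 23.5% higher without overlap, 45% in either direction. The median log2 fold change was -0.43 over the 9 members and 0.01 over all genes. DESeq2 on the recovered reads, with Benjamini-Hochberg adjustment at 0.05, called 4 of the 9 (Tef, Dbp, Per3 and Nr1d1, all lower), where it called 2.52% of the 12601 genes it adjusted, 1.07% as lower and 1.45% as higher. Limma called 0 of the 9 and edgeR 0, where limma called 0.0183% and edgeR 0.0305% of all genes; at an unadjusted p under 0.05, limma, edgeR and DESeq2 each had 5 lower and 0 higher, beside 4.93%, 4.83% and 3.75% of all genes as lower in those tools. Since the choice of members used this comparison, nothing is read from these counts. The authors' deposited short list holds 0.94% of their table, with an adjusted p under 0.05 and a log2 fold change beyond 1 in size. Of the members it lists Tef, Dbp and Per3. Their deposited log2 fold changes of -1.56, -1.59 and -1.12 equal those of the DESeq2 fit here. Both have 318 genes at an adjusted p under 0.05, so the deposited list is not an independent source.

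The sizes for Dbp, Tef and Per3 rested in good part on lv_nc replicate 2. Without it, their log2 fold changes were -0.93, -0.96 and -0.65, and without lv_nc replicate 1 they were -2.04, -1.99 and -1.47. Nr1d1 kept between -0.73 and -0.69 whichever library was left out, and Nr1d2 between -0.55 and -0.32. Per1 stayed between -0.24 and -0.14. Per2, Cry1 and Cry2 took either sign, with ranges of -0.16 to 0.61, -0.09 to 0.18 and -0.28 to 0.02.

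**Figure D2:**
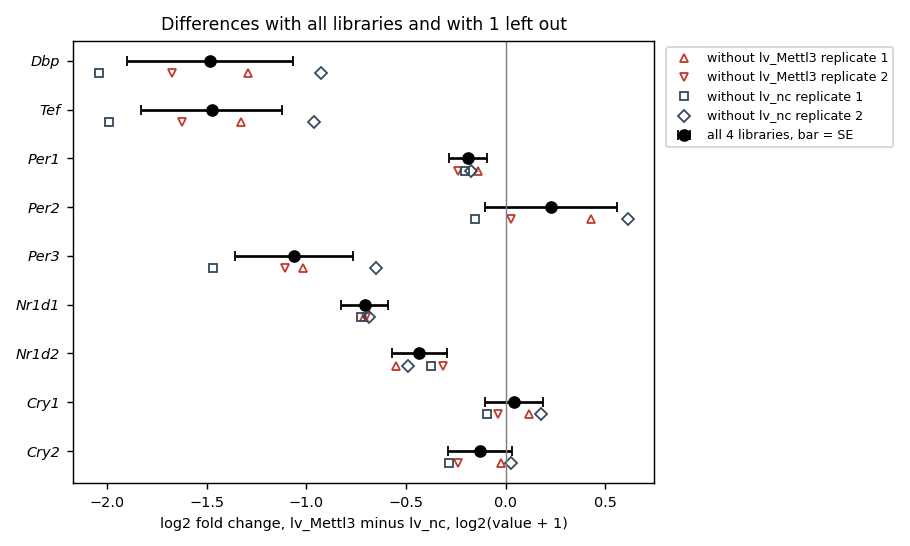
Log2 fold changes (x axis, lv_Mettl3 minus lv_nc, on log2(value + 1)) of the 9 members that passed the filter. Black points use all 4 libraries with SE bars, and open symbols leave 1 library out; Dbp, Tef and Per3 stay below 0 over a wide range (-2.04 to -0.93 for Dbp), Nr1d1 stays between -0.73 and -0.69, and Per2, Cry1 and Cry2 fall on both sides of 0.

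Between replicates, log2 differences over 10051 genes (mean 100 or more) had an SD of 0.29 in lv_Mettl3 and 0.41 in lv_nc. Replicate 2 of lv_Mettl3 exceeded replicate 1 by 0.38 for Dbp, 0.30 for Tef and 0.09 for Per3 on the log2 scale. Replicate 2 of lv_nc exceeded replicate 1 by 1.11 for Dbp, 1.03 for Tef and 0.82 for Per3 on the log2 scale. Per2, whose groups overlap, had nearly the gap of Per3, at 0.77. Gaps between the lv_nc libraries at least as wide, in either direction, were found for 1.51% of those genes in the case of Dbp, 2.01% for Tef, 4.14% for Per3 and 4.89% for Per2. The collagen genes Col1a1, Col3a1 and Col1a2 likewise stood highest in lv_nc replicate 2, their part in the result not being tested. Nr1d1 differed by -0.01 between the lv_Mettl3 libraries and by 0.04 between the lv_nc libraries.

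Per kilobase of gene length, Per1 was the most abundant member in both groups, at 307 ± 15.3 in lv_Mettl3 and 349.9 ± 5.21 in lv_nc. In lv_Mettl3 it was followed by Cry1 at 191 ± 14.5, Cry2 at 139 ± 14.6, Nr1d1 at 135 ± 0.70, Nr1d2 at 95.9 ± 11.0, Tef at 81.7 ± 11.9, Dbp at 44.5 ± 8.33, Per3 at 27.1 ± 1.23 and Per2 at 23.8 ± 4.69. Cry2 and Nr1d1, Nr1d2 and Tef, and Per3 and Per2 were neighbours whose libraries overlapped. In lv_nc Tef stood after Per1, at 241 ± 117, ahead of Nr1d1 at 220.02 ± 4.35, Cry1 at 186 ± 24.3, Cry2 at 153 ± 23.1, Dbp at 134 ± 70.0, Nr1d2 at 129 ± 7.37, Per3 at 59.0 ± 23.2 and Per2 at 20.9 ± 7.75. There the libraries of Tef overlapped those of Nr1d1, Cry1, Cry2 and Dbp, those of Cry1 overlapped those of Cry2, and those of Dbp overlapped those of Cry1, Cry2 and Nr1d2 as well, so from Tef to Nr1d2 much of the order is not settled beyond the spread.

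Beyond the members, 68 further genes were taken in 5 lists: 55 of the clock, its regulators and its outputs in 4 lists, and 13 that respond to glucocorticoids and cAMP, as Per1 does. Like the members, these lists were chosen with earlier results of these data known, which limits what calls among them can show. Limma, adjusted over the whole table, called 0 of the 68, and edgeR called 0. At an unadjusted p under 0.05 limma had 2 higher and 3 lower (7.35% of the 68), beside 10.5% of all genes. DESeq2 called 2, both lower, Usp2 and Tsc22d3, which is 3.08% of the 65 it adjusted, beside 2.52% of all genes. Of the 68, 12 genes (17.6%) were higher and 15 (22.1%) lower without overlap, beside 23.5% and 21.5% of all genes, with a median log2 fold change of -0.04. These shares were near those of the whole table. By list, the median was 0.25 for activators, 0.10 for other repressors and -0.02 for kinases, ubiquitin pathway genes and corepressors. It was -0.20 for outputs and 0.12 for glucocorticoid and cAMP genes.

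Of 4 activators of the loop, limma, edgeR and DESeq2 called 0, and limma had 0 at an unadjusted p under 0.05. Clock, which encodes the partner of BMAL1, had 1889 and 1559 in lv_Mettl3, against 1507 and 929.6 in lv_nc (log2 fold change 0.54, SE 0.25, limma adjusted p = 0.506). Arntl, named after its values were seen, had 489.8 and 391.7 in lv_Mettl3, against 394 and 360.03 in lv_nc, and its groups overlapped (log2 fold change 0.22, SE 0.16, limma adjusted p = 0.633). Npas2, a relative of Clock, had 86.9 and 67.2 in lv_Mettl3, against 94.8 and 102 in lv_nc (limma adjusted p = 0.609). Per kilobase, the level of Arntl over that of Nr1d1, its repressor, was 1.22 and 0.98 in lv_Mettl3 and 0.61 and 0.54 in lv_nc. Nr1d1 is a member chosen with this comparison known, so the group difference in this ratio is no separate result.

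Of 6 other repressors and antagonists, limma, edgeR and DESeq2 called 0, and limma had 0 at an unadjusted p under 0.05. Nfil3, the D-box repressor, had 412 and 373 in lv_Mettl3, against 318 and 371 in lv_nc (log2 fold change 0.19, SE 0.15, limma adjusted p = 0.648). Per kilobase, the level of Nfil3 over the summed levels of Tef and Dbp was 1.88 and 1.35 in lv_Mettl3 and 0.67 and 0.37 in lv_nc. Tef and Dbp were chosen with this comparison known, so the group difference in this ratio is no separate result. Ciart, a CLOCK and BMAL1 repressor, had 67.9 and 72.3 in lv_Mettl3, against 50.8 and 52.6 in lv_nc (limma adjusted p = 0.562). Tipin, a partner of Timeless, and Cipc, a CLOCK interactor, had log2 fold changes of 0.44 (SE 0.17) and -0.21 (SE 0.10), with limma adjusted p of 0.482 and 0.51.

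Among 26 kinases, ubiquitin pathway genes and corepressors of the clock, DESeq2 called Usp2, a deubiquitinase that acts on clock proteins and is itself rhythmic in mouse tissues. Usp2 had 498 and 469 in lv_Mettl3, against 678 and 902.8 in lv_nc, with both lv_Mettl3 libraries lower. It fell in DESeq2 (log2 fold change -0.71, SE 0.21, DESeq2 adjusted p = 0.0413), whereas the limma adjusted p was 0.399. Wdr5, Prkaa2 and Sfpq, a histone methyltransferase subunit, an AMP-activated kinase subunit and an RNA-binding corepressor, had log2 fold changes of 0.43, 0.42 and 0.34, with limma adjusted p of 0.486, 0.497 and 0.502. The casein kinase genes Csnk1d and Csnk1e, whose products phosphorylate the period proteins, had log2 fold changes of -0.08 and -0.06 and were named after their values were seen.

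Among 19 clock-controlled and PAR bZIP output genes, DESeq2 called Tsc22d3, which encodes a leucine zipper protein also induced by glucocorticoids. Tsc22d3 had 654 and 723 in lv_Mettl3, against 919 and 1592 in lv_nc, a pattern in which lv_nc replicate 2 was again the highest. It fell in DESeq2 (log2 fold change -0.87, SE 0.24, DESeq2 adjusted p = 0.0212; limma adjusted p = 0.464). Pdxk, a vitamin B6 kinase under PAR bZIP control in the mouse, had 177 and 182 in lv_Mettl3, against 226 and 243 in lv_nc (log2 fold change -0.38, SE 0.16, limma adjusted p = 0.494). Lgr4 and Cdkn1a had log2 fold changes of -0.29 and -0.20 (limma adjusted p = 0.56 and 0.512). In this list 4 genes (21.1%) were lower and 0 higher without overlap, beside 21.5% and 23.5% of all genes. The median log2 fold change was -0.20, beside 0.01 over all genes. That median counts low genes with changes below 0: Slc5a1, Fmo2 and Cys1, at no more than 1.85, 5.17 and 19.4 in any library. With 19 genes in the list, nothing is read from it.

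The DESeq2 calls of Usp2 and Tsc22d3 ended without lv_nc replicate 2 (DESeq2 adjusted p = 0.704 and 0.768) and without either lv_Mettl3 library, where 0 of the 68 genes were called. Without lv_nc replicate 1, limma and DESeq2 called more of the 68. Both also called more genes over the whole table there, so nothing is read from those calls.

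The last list holds the 13 genes that share glucocorticoids and cAMP as inducers with Per1. Limma, edgeR and DESeq2 called 0 of them. At an unadjusted p under 0.05 limma had 2 higher and 1 lower (23.1% of the 13), beside 10.5% of all genes. With 13 genes in the list, nothing is read from that share. Fkbp5, a glucocorticoid-induced immunophilin gene, had 1668 and 1831 in lv_Mettl3, against 1923 and 2280.2 in lv_nc (log2 fold change -0.26, SE 0.12, limma adjusted p = 0.506). Dusp1, a MAP kinase phosphatase gene, had 1570.2 and 1479.8 in lv_Mettl3, against 1329.7 and 1140.1 in lv_nc (log2 fold change 0.31, SE 0.12, limma adjusted p = 0.471). Rgs2 and Nr4a2 had log2 fold changes of -0.45 and -0.53 (limma adjusted p = 0.452 and 0.537). Sik1, named after its values were seen, had a log2 fold change of 0.25 (limma adjusted p = 0.471). In this list 4 genes (30.8%) were higher and 3 (23.1%) lower without overlap, beside 23.5% and 21.5% of all genes. The median log2 fold change was 0.12.

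**Figure D3:**
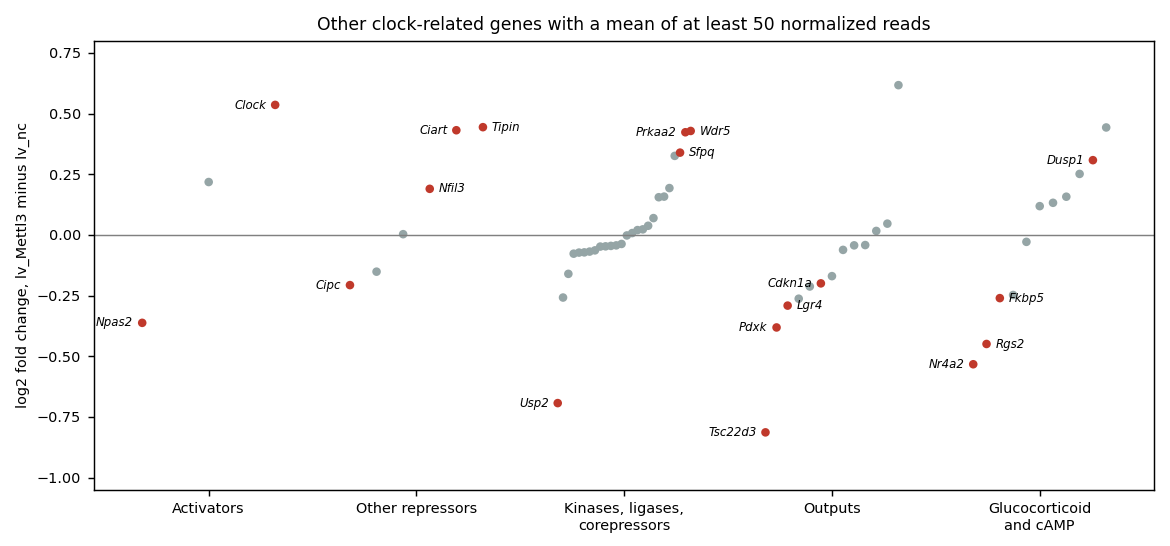
Log2 fold changes (y axis, lv_Mettl3 minus lv_nc, on log2(value + 1)) of 59 of these clock-related genes, those with a mean of at least 50 normalized reads, by list. Each point is a gene and red points are the named ones; Tsc22d3 at -0.81 and Usp2 at -0.69 lie lowest, Clock at 0.54 and the endothelin gene Edn1 at 0.62, which overlapped between the groups and was named after its value was seen, lie highest, and none was called by limma.

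Profiles over the 4 libraries were compared by the distance between log2(value + 1) values centred on each gene's own mean, a description over 4 libraries that all genes share. Of 9211 other genes with a symbol and a mean of at least 100, the nearest to Dbp was Tef, at a distance of 0.08. Cnih2, which encodes an auxiliary protein of AMPA receptors, and St8sia1, a sialyltransferase gene, came next at 0.17 each. Cnih2 had 182 and 209.8 in lv_Mettl3, against 341 and 762 in lv_nc. Per3 was at rank 35 from Dbp, Nr1d1 at rank 346 and Per1 at rank 2176.

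Nearest to Nr1d1 were Susd5, Vangl2, a planar cell polarity gene, and Tmem98, at 0.08, 0.11 and 0.11. Susd5 had 574 and 601 in lv_Mettl3, against 909 and 945 in lv_nc. Nr1d2 was at rank 190 from Nr1d1. Nearest to Per1 were Fosl2, Mcm3 and Nacc1, all within 0.03, since many genes change as little over the libraries as Per1 does. Across these profiles Dbp, Tef and Per3 share a steep pattern with lv_nc replicate 2 on top. Nr1d1 separates the groups, with a spread within them that is smaller than counting error. Nr1d2 separates the groups less widely, with its lv_Mettl3 libraries 0.24 apart on the log2 scale. The groups overlap for the cryptochromes and Per2.

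**Figure D4:**
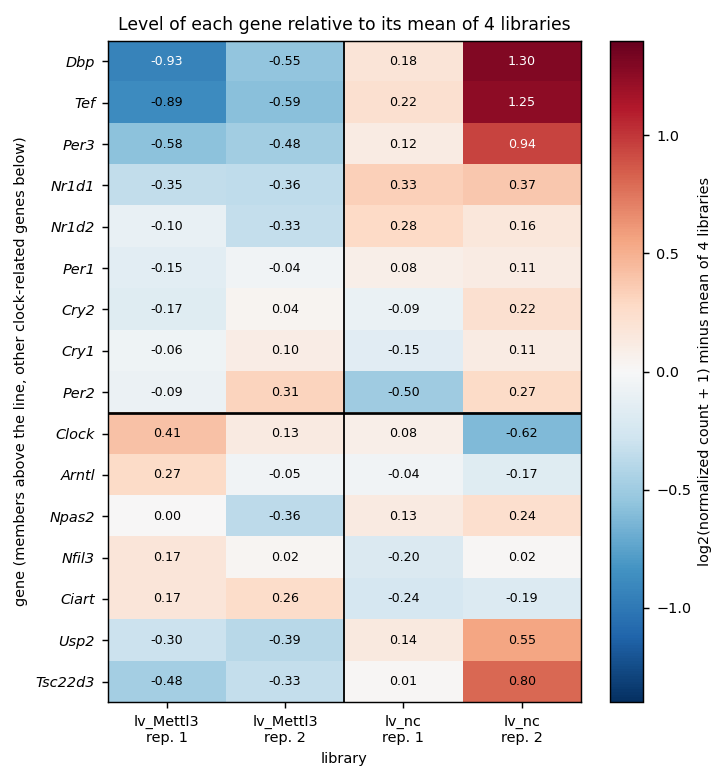
Log2(normalized count + 1) minus the mean of 4 libraries (colour and printed value) for the members above the black line and 7 other clock-related genes below it, by library, with lv_Mettl3 on the left. Dbp reads -0.93 and -0.55 in lv_Mettl3 and 0.18 and 1.30 in lv_nc, Tef follows it closely, Tsc22d3 and Usp2 have the same order of groups at smaller size, and Clock reads 0.41 in lv_Mettl3 replicate 1 and -0.62 in lv_nc replicate 2.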

How the data were processed

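RNA from 2 lv_Mettl3 and 2 lv_nc libraries of NRK-52E was compared, with groups and replicate numbers taken from the titles. Reads were processed with CASAVA 1.4 and HISAT2, per the submitters' processing notes; for the counter, genome build, annotation and strand setting, sources used here give nothing. The library columns deposited by the authors hold a signal, gene read counts divided by 1 size factor per library: multiplied by that factor, 100% of values in each library came out whole within 0.001 reads. These recovered reads gave size factors of 0.943, 0.968, 1.02 and 1.08 in lv_Mettl3 replicates 1 and 2 and lv_nc replicates 1 and 2. Group means, log2 fold changes and p-values or adjusted p-values deposited by the authors are their own, and the tool is not named per the file headers. For Tef, Dbp and Per3 the deposited log2 fold changes equal those of the DESeq2 fit here to 2 decimals.

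The test was limma 3.58.1 with a trend, run on log2(value + 1), a scale that understates changes of low genes. Genes needed 2 or more libraries at 1 or above, and p-values were adjusted (Benjamini-Hochberg, 0.05) over all 16391 that passed. edgeR 4.0.16 (quasi-likelihood) and DESeq2 1.42.0, fitted to the recovered reads, were alternatives, and scripts were tested on simulated counts. Scripts ran in R 4.3.3 and in Python 3.11.15. The members and lists were chosen with earlier results of these data known. Other clock-related genes named are those called by limma and, up to 4 per list, the largest changes among genes with a mean of at least 50 and groups that do not overlap. Of 81 list symbols, 68 genes were matched, with 2 symbols found by synonym. Promoter windows are from RefSeq (GRCr8). Poisson intervals cover counting error only.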

Additional observations from a re-analysis of the deposited data

How the results depend on the processing

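With scaling to library size or TMM, pseudocounts of 0.1 or 5, no filter, at least 1 CPM in all 4 libraries, robust empirical Bayes, edgeR or a replicate block, limma's or edgeR's count of other clock-related genes called was 0, and with DESeq2 it was 2. It was 0 to 8 in limma and 0 to 7 in DESeq2 with 1 library left out, the highest in both without lv_nc replicate 1. The DESeq2 fits without a library were chosen after seeing the data. Over the whole table limma called 3 genes. That count was 0 with a pseudocount of 0.1, 5 with at least 1 CPM in all 4 libraries, 24 with robust empirical Bayes, 5 with edgeR and 318 with DESeq2; with 1 library left out it was 28 to 1431 in limma and 56 to 1547 in DESeq2 (56 and 61 without lv_Mettl3 replicates 1 and 2, 1547 and 217 without lv_nc replicates 1 and 2). With 1 library left out, the lone library of a group is assumed to vary like the other group, and the cause of these moves was not tested.

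Under the settings that keep all 4 libraries, log2 fold changes lay between -1.59 and -1.44 for Dbp, -1.56 and -1.46 for Tef, -1.12 and -1.04 for Per3 and -0.75 and -0.70 for Nr1d1. TMM and library size scaling moved the median of all genes by 0.01 and -0.04 (log2). Replicate numbers are shared by the groups, and the deviations of same-numbered libraries correlated at 0.33 across 10051 genes, which with 2 pairs does not show pairing; with a replicate block limma called 3 genes and 0 other clock-related genes. Depth limits Hlf, at no more than 2 reads, and the sizes for Dbp, at 62 to 338 reads.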
